A study of Mus musculus with 6 samples.

Results

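The nuclear genes of the mitochondrial respiratory chain and of ATP synthase were examined in mouse liver after treatment with trichloroethylene (TCE), a chlorinated solvent. Members were all genes on the array whose symbol starts with Ndufa, Ndufb, Ndufc, Ndufs or Ndufv, Uqcr, Cox4 to Cox8 or Atp5, together with Sdha, Sdhb, Sdhc and Sdhd. There were 93 such genes among 24239 gene symbols, measured by 136 probes. The rule reads symbols alone, although it was set with earlier results of these data known. The samples were livers of 6 male B6C3F1 mice aged 7 weeks, a first-generation cross of 2 inbred strains. The 3 control mice received corn oil by gavage, and the 3 TCE mice received TCE in corn oil at 1000 mg/kg b.w., both once daily for 5 days. RNA of each liver was hybridized to its own 1-colour array, so that each value below is 1 mouse. Values are log2 intensities after quantile normalization of the 6 arrays. A gene was measured when a probe was well above background in all 3 mice of at least 1 group, and the brightest such probe stood for the gene. Whole liver RNA was used, so that fewer cells of a type and less RNA per cell cannot be told apart.

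The respiratory chain sits in the inner mitochondrial membrane and moves electrons from NADH and succinate to oxygen. Complex I takes electrons from NADH and complex II, which is also an enzyme of the TCA cycle, takes them from succinate. Coenzyme Q carries them to complex III and cytochrome c to complex IV, and complex V uses the proton gradient to make ATP. Complex II is encoded wholly by nuclear genes, whereas the other complexes also hold subunits encoded by mitochondrial DNA (mtDNA). Nuclear respiratory factor 1 (NRF1), ETS family factors such as GABP, YY1, estrogen-related receptors (ERR) and the coactivator PGC-1 are known regulators of these nuclear genes. Trichloroacetic acid, a metabolite of TCE, activates PPARα in rodent liver, a receptor that induces genes of fatty acid oxidation.

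Promoter sequences of 5 members are shown because Cox6b2 and Cox7a1 had the highest fold changes of all members, and to show 3 members whose promoters carry the motifs of these factors. They run from 250 bases before to 50 bases after the start of the gene in RefSeq, build GRCm38.p6, 5′ to 3′ on the strand of the gene. Capitals mark matches on either strand to GCGCATGC (NRF1), CCGGAAG (ETS), AAGATGGC (YY1), AAGGTCA (ERR), CCAAT or GGGCGG (Sp1), which may overlap. Cox6b2 lies at chr7:4753045-4753344 on the minus strand, Cox7a1 at chr7:30183921-30184220 on the plus strand, Ndufb8 at chr19:44555393-44555692 on the minus strand, Cox6a1 at chr5:115348909-115349208 on the minus strand and Sdhb at chr4:140961021-140961320 on the plus strand.
Cox6b2: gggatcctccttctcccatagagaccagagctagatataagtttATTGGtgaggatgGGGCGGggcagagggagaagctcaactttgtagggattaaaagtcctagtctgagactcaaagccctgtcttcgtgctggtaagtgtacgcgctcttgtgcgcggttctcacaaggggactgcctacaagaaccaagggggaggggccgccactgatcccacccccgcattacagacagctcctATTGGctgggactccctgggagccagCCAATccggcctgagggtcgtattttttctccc
Cox7a1: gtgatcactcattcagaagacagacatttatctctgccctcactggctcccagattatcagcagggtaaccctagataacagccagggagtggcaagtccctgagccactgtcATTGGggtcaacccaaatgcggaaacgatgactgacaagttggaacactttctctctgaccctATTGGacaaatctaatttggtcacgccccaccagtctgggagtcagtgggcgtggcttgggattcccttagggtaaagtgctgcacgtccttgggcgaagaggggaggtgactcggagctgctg
Ndufb8: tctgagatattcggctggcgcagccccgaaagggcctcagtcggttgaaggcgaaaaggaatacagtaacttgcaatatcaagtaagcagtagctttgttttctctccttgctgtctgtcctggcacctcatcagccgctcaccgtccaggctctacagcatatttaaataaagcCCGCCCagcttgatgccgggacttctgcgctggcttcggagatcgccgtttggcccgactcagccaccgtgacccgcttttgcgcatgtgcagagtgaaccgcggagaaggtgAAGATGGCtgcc
Cox6a1: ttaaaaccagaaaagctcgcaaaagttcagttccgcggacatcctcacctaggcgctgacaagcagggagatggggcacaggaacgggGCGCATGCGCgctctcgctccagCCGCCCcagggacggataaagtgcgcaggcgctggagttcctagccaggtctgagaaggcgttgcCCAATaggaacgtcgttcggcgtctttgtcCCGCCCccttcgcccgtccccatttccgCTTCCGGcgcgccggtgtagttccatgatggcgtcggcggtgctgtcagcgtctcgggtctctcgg
Sdhb: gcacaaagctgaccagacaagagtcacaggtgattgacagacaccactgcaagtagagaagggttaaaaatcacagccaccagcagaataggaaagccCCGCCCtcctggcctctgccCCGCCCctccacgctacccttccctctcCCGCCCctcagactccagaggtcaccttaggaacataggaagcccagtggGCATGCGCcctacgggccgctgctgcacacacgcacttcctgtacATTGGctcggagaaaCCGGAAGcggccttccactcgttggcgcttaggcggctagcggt

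A RefSeq promoter was matched by gene identifier for 76 of the 93 members. The NRF1 motif was in 15.8% of these members and in 3.05% of all 27025 genes with a promoter of that length. The ETS motif was in 22.4% of members against 9.93% of all genes, the YY1 motif in 14.5% against 3.19% and the ERR motif in 10.5% against 5.38%. The CCAAT motif, in 44.7% against 41.1%, and the Sp1 motif, in 44.7% against 38.2%, differed less in share. At least 1 of the NRF1, ETS and YY1 motifs was in 34 members, or 44.7%, and in 14.9% of all genes. Sdhb and Cox6a1 held both the NRF1 and the ETS motif, and Ndufb8 held the YY1 motif just after its start. Cox6b2 and Cox7a1 held none of the NRF1, ETS, YY1 and ERR letters in this window.

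The signal was well above background for 23538 to 24968 of 55681 probes per array, and 0 spots were saturated. The array of control mouse 1 lay alone on 1 slide and the remaining 5 arrays lay together on another. The array of TCE mouse 2 had 217 bright probes (mean log2 signal over 10) that lay more than 0.75 below the lowest of the other 5 arrays, whereas the other arrays had 2 to 78. On that array 1817 spots lay among neighbours that deviated by a median of over 0.4 from the other arrays, against 78 to 598 on the others. Results that rest on this array are therefore also given without it. The 6 hepatocyte markers, among them Alb and Ttr, had a summed log2 level of 20.40 to 20.42 in control mice and 20.27 to 20.39 in TCE mice. The summed levels of 4 endothelial markers (13.333 to 13.530 against 12.740 to 13.330) and of 3 lymphocyte markers (10.84 to 10.91 against 10.36 to 10.79) were also lower in every TCE mouse. The hepatocyte and endothelial sums were barely apart, and 0 of these markers passed the adjusted p. Single markers differed in sign. Ttr, Ass1 and Cd79a, a lymphocyte marker, had log2 fold changes of 0.14, 0.03 and 0.40, and the other measured markers of these lists were lower with TCE. Of all single genes, 10.8% were separated in this direction. Alas2, the heme synthesis enzyme of red cell precursors, fell by 0.91 on the log2 scale (adjusted p by limma = 0.0215). The sum of the 3 erythroid markers, with Alas2 among them, overlapped between the groups (16.23 to 16.76 against 14.87 to 16.48). The cholangiocyte, stellate, smooth muscle and Kupffer sums also overlapped. The part of these cells in the results on members was not tested. With 3 mice per group an exact permutation test of a single gene (two-sided) cannot give a p below 0.1, so that genes were tested with limma, which pools the spread across all 22731 measured probes.

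Of the 93 members, 89 were measured and 1 changed. Cox6b2 was higher in the TCE mice at an adjusted p of 0.05 or less (limma, Benjamini-Hochberg over all probes) and by over 2-fold, and 0 members were lower. Among all 13284 genes measured, 2.39% passed this adjusted p, 1.8% passed it and were higher in TCE mice, and 1.73% passed it with a 2-fold change. The count of 1 among 89 members was therefore not above that background. The other members moved little: 67 of 89 were higher with TCE and 22 were lower, with a median log2 fold change of 0.11, beside 53.1% of all genes higher and a median of 0.02. Without TCE mouse 2, 90 members were measured, of which 71 were higher, 19 were lower and 0 passed, with a median of 0.14. A log2 change of more than 0.5 in either direction was seen in 2 members, and of more than 0.25 in 19.

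The small differences had one prevailing direction. All 3 TCE mice lay above all 3 control mice in 26 members, or 29.2%, where 17.1% of all genes were separated in this direction. The reverse separation was seen in 1 member, Atp5a1, or 1.12%, where 10.8% of all genes were so separated. At an unadjusted limma p under 0.05, 8 members were higher and 0 lower, beside 12% of all genes higher and 7.11% lower. The share of members at this level was thus not above the background. The median absolute log2 change was 0.14 in members and 0.20 in all genes.

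The precision of the arrays bounds these changes only as read by the brightest probe of each gene. The 95% interval of the fold change lay wholly within 2-fold in either direction for 86 of the 89 members, and within 1.5-fold for 64. The 3 members whose interval reached past 2-fold were Cox6b2, Ndufb2 and Ndufa4l2. The half-width of the interval, on the log2 scale, had a median of 0.30 and ran from 0.24 to 1.17. Other probes of some genes reached past 2-fold, as for Cox7c (log2 interval -1.72 to 0.76), Uqcrh (-1.31 to 0.36) and Ndufa3 (0.05 to 1.32).

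**Figure D1:**
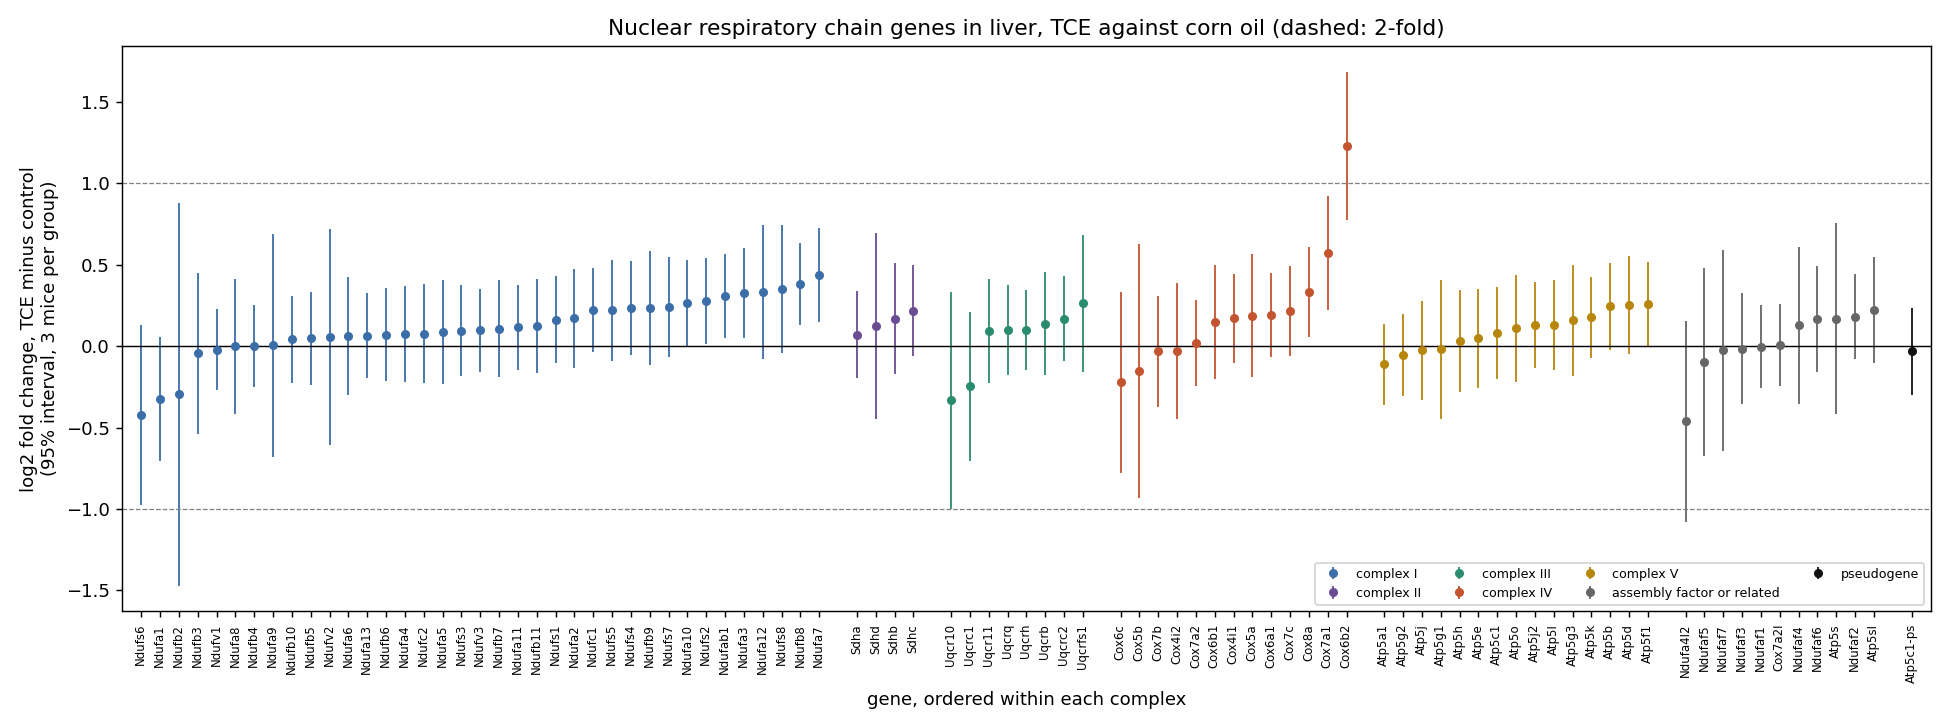
Log2 fold change (TCE minus control) of the 89 measured members with its 95% interval from limma, ordered within complexes I to V, the assembly factors or related genes and 1 pseudogene; dashed lines mark 2-fold. Cox6b2 at 1.23 stands alone above the 2-fold line, and most other points lie slightly above 0.

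Complex I was the largest group, with 37 genes, all measured. Of these, 31 were higher and 6 lower in TCE mice, the median log2 fold change was 0.10, and 0 passed the adjusted p. The mean over the 37 genes was 14.76, 14.78 and 14.78 in the control mice and 14.88, 14.90 and 14.89 in the TCE mice. The groups did not overlap. The mean over all genes did not overlap either, with 9.650, 9.654 and 9.646 in control mice and 9.677, 9.695 and 9.673 in TCE mice. The difference was 0.11 in complex I and 0.03 over all genes. Non-overlapping groups were seen in 11 complex I genes, and all 11 were higher in TCE mice. This was 29.7% of complex I, where 17.1% of all genes were separated higher and 10.8% lower. The share was not particular to complex I. In complex II 1 of 4 genes (25%), in III 2 of 8 (25%), in IV 6 of 13 (46.2%) and in V 5 of 15 (33.3%) were separated higher.

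Ndufa7, an accessory subunit, had the highest fold change in complex I. Its log2 signal was 15.02, 14.84 and 14.77 in control mice and 15.35, 15.34 and 15.23 in TCE mice, a difference of 0.44 (SE 0.12, adjusted p by limma = 0.138). Ndufb8, an accessory subunit of the membrane arm, was at 15.36, 15.46 and 15.45 in control mice and at 15.81, 15.75 and 15.85 in TCE mice. Both groups of Ndufb8 were narrow, and they differed by 0.38 on the log2 scale (adjusted p by limma = 0.139). The probe of Ndufa7 lies at chr17:33975141-33975200 in mm9, the build of the array annotation. Ndufab1, the mitochondrial acyl carrier protein that is also a complex I subunit, was at 14.79, 14.83 and 14.77 in control mice and at 15.20, 15.03 and 15.08 in TCE mice. Ndufa3 and Ndufab1 had log2 fold changes of 0.33 and 0.31, and their adjusted p values by limma were 0.219 and 0.214.

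Ndufs1 and Ndufv1, of the catalytic core of complex I, differed by less than these, but not every core subunit did. Ndufs8 and Ndufs7, also of the core, had log2 fold changes of 0.35 and 0.24 with groups apart (adjusted p by limma = 0.324 and 0.382). The core subunits Ndufs3 and Ndufv2 had log2 fold changes of 0.10 and 0.06, and their groups overlapped. Ndufs1, the largest subunit, which carries iron-sulfur clusters, was at 14.21, 14.26 and 14.15 in control mice and at 14.45, 14.27 and 14.38 in TCE mice. The groups of Ndufs1 were barely apart. Ndufv1, which binds NADH, was at 15.39, 15.44 and 15.44 against 15.47, 15.41 and 15.34, and the groups overlapped.

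The lowest fold changes in complex I came from overlapping groups. Ndufs6, an accessory subunit that binds zinc, was at 16.30, 16.37 and 16.35 in control mice and at 15.54, 15.80 and 16.41 in TCE mice. TCE mouse 3 was above every control mouse, and the log2 difference of -0.42 did not pass (adjusted p by limma = 0.394). Ndufa1, an accessory subunit encoded on the X chromosome, differed by -0.32 on the log2 scale (adjusted p by limma = 0.348). Ndufa4 was named as a complex I gene but is now counted as a subunit of complex IV, and its log2 fold change was 0.07.

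Complex II, succinate dehydrogenase, has 4 genes and all were higher in the TCE group, with a median log2 fold change of 0.15 and 0 past the adjusted p. Sdha, the flavoprotein that oxidizes succinate, was at 14.52, 14.51 and 14.39 in control mice and at 14.59, 14.59 and 14.45 in TCE mice. Sdhb, the iron-sulfur subunit, was at 15.89, 15.81 and 16.17 against 16.18, 16.00 and 16.20. Both pairs of groups overlapped. Sdhc, 1 of the membrane anchors, was at 13.71, 13.63 and 13.80 in control mice and at 14.01, 13.97 and 13.82 in TCE mice, and its groups did not overlap (log2 fold change 0.22, adjusted p by limma = 0.387). Sdhd, the other anchor, was at 15.10, 14.99 and 14.88 against 15.42, 14.59 and 15.34, with TCE mouse 2 below all other mice. Without TCE mouse 2 the median of complex II was 0.22.

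Complex III had 8 genes, of which 6 were higher and 2 lower, with a median log2 fold change of 0.10 and 0 past the adjusted p. Uqcrfs1, the Rieske iron-sulfur protein that passes electrons on, had the highest fold change, with 14.923, 15.002 and 14.485 in control mice against 15.098, 15.197 and 14.901 in TCE mice. The groups overlapped, and the log2 difference was 0.26 (adjusted p by limma = 0.488). The core proteins differed in sign: Uqcrc2 had a log2 fold change of 0.17 and Uqcrc1 of -0.25. Uqcrc1 was at 13.33, 13.35 and 13.35 in control mice and at 12.93, 12.85 and 13.50 in TCE mice, with TCE mouse 3 above the controls. The spots around that of Uqcrc1 deviated by a median of -0.31 on the array of TCE mouse 2 and of 0.36 on that of TCE mouse 3, in the direction of the gene's own deviation, and their part in the result was not tested. Uqcrc2 was spotted 10 times per array, and the SD between its spots, on the log2 scale, was 0.03 to 0.08 on 4 arrays, 0.28 on that of TCE mouse 2 and 0.34 on that of control mouse 3.

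Complex IV, cytochrome c oxidase, had 17 genes, of which 13 were measured. Of these 9 were higher and 4 lower, and 1 changed. The 13 genes had a median of 0.17 on the log2 scale. The mean over the 13 genes was 13.91, 13.95 and 14.02 in control mice and 14.14, 14.18 and 14.16 in TCE mice, a difference of 0.20. Without Cox6b2 and Cox7a1, which were left out after their values were seen, the difference was 0.07 and 7 of 11 genes were higher.

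Cox6b2 is the isoform of subunit 6B known from testis, where it takes the place of Cox6b1. Its probe lies at chr7:4703488-4703547 in mm9 on the minus strand and starts with the bases ggaactttcccgggcaaaatatgaccttgc. The log2 signal was 7.13, 6.79 and 7.21 in control mice and 7.98, 8.53 and 8.30 in TCE mice, all 6 well above background and with no overlap between the groups. The means were 7.04 ± 0.22 and 8.27 ± 0.27 (SD, n = 3 each), a 2.34-fold rise or 1.23 on the log2 scale (SE 0.19, 95% interval 0.77 to 1.69, adjusted p by limma = 0.0350). The direction was the same in all 18 alternatives. The adjusted p rose above 0.05 when any 1 mouse was left out (0.0627 to 0.130) and when dim probes were not filtered (0.128), and the fold was under 2 with another background correction (log2 fold change 0.95). Cox6b1, the isoform of most tissues, was at 12.83, 12.94 and 13.05 against 13.27, 12.86 and 13.14, and its groups overlapped. Of 5 germ cell markers on the array, Ldhc, Cyct and Ddx4 were not well above background on any array. Prm1, a sperm nuclear protein, was well above background in 0 control mice and 2 TCE mice, with measured log2 signals of 4.17, 3.35 and 4.23 against 6.09, 3.93 and 5.74, and was not tested. Tnp1, another such protein, was well above background in 1 control mouse and 3 TCE mice, at 4.05, 4.04 and 5.21 against 5.72, 5.50 and 5.24, and did not pass (adjusted p by limma = 0.186). Tnp1 was tested only because it was well above background in all 3 TCE mice. Measured means were higher with TCE for Prm1, Tnp1 and Ddx4 and lower for Ldhc and Cyct. The part of germ cells in the result on Cox6b2 was not tested.

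The other isoforms of complex IV with a restricted tissue range did not pass or were below background. Cox7a1, the isoform of heart and skeletal muscle, also found in brown fat, was at 9.899, 9.935 and 10.001 in control mice and at 10.767, 10.315 and 10.471 in TCE mice. The groups did not overlap and differed by 0.57 on the log2 scale, which did not pass (SE 0.15, adjusted p by limma = 0.121). Of 8 striated muscle markers, Acta1, Actc1, Ckm, Myh7, Mb and Tnnt3 were not above background, and the summed log2 level of the other 2, Pygm and Myh6, was 8.72 to 9.03 in control mice and 8.50 to 8.89 in TCE mice. Myh6, a myosin of heart muscle, was well above background in 3 control mice and 0 TCE mice, and was tested only through the control group. Its measured means were 5.94 and 3.34 (measured log2 difference -2.60, adjusted p by limma = 0.0413). With TCE values raised to the lowest signal well above background, Myh6 was at least 2.26-fold lower. That bound was not tested. Of 6 brown fat markers, Ucp1, Cidea and Adipoq were not above background, and the sum of the other 3 was 12.95 to 13.03 in control mice and 12.39 to 13.86 in TCE mice. That sum was set mainly by Elovl3, the brightest of them, with means of 12.78 in control mice and 12.56 in TCE mice. Fabp4, a fatty acid binding protein of fat cells and macrophages, rose from a mean of 9.89 to 10.86 with no overlap (log2 fold change 0.97, adjusted p by limma = 0.0382). Elovl3 and Ppargc1b had the opposite sign, with log2 fold changes of -0.21 and -0.57, and did not pass (adjusted p by limma = 0.837 and 0.703). The part of muscle or fat cells in the result on Cox7a1 was not tested. Cox4i2, an isoform induced by low oxygen and known from lung, was at 6.94, 7.39 and 7.45 against 7.36, 7.22 and 7.10. Cox6a2, the muscle isoform of subunit 6A, was well above background in 0 control mice and 2 TCE mice, with measured log2 signals of 4.67, 4.93 and 4.49 against 5.69, 5.17 and 5.76, and was not tested. Cox7b2, Cox8b and Cox8c were not well above background on any array.

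The isoforms that liver uses were slightly higher or overlapped. Cox8a, the subunit 8 of most tissues, was at 16.57, 16.77 and 16.59 in control mice and at 16.95, 17.05 and 16.92 in TCE mice, a difference of 0.33 (adjusted p by limma = 0.212). Cox6a1, the liver isoform of subunit 6A, and Cox4i1, the common subunit 4, had non-overlapping groups with log2 fold changes of 0.19 and 0.17. Cox5a was at 16.40, 16.41 and 16.41 against 16.32, 16.85 and 16.62, so that the control mice were nearly equal and the TCE mice spread around them. Cox6c had the lowest log2 fold change in complex IV, -0.22 (adjusted p by limma = 0.661), and TCE mouse 1 at 15.21 was the only mouse outside the range of 15.82 to 16.06 of the others.

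**Figure D2:**
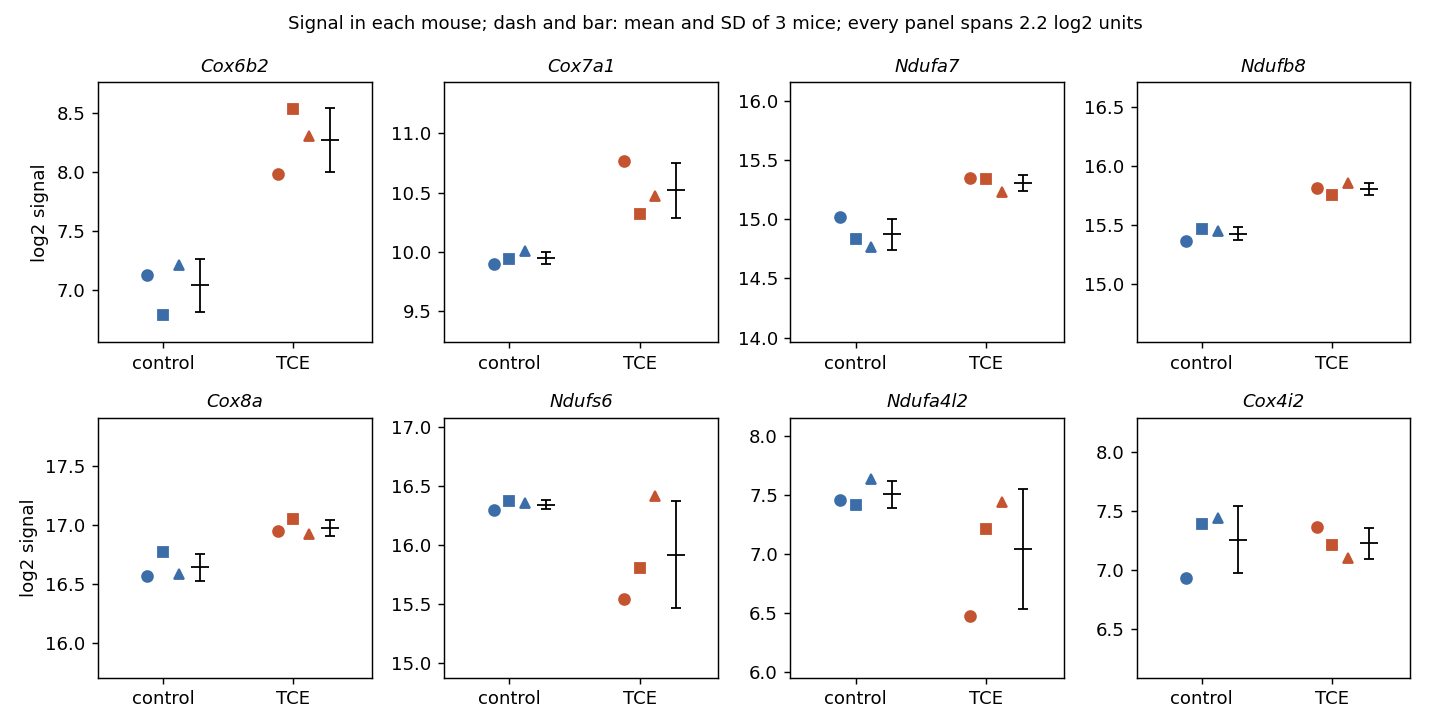
Log2 signal of 8 members in each mouse (circle, square and triangle are mice 1, 2 and 3 of a group), with the mean and SD of the 3 mice beside them; every panel has the same height in log2 units. The groups are apart for Cox6b2, Cox7a1, Ndufa7, Ndufb8 and Cox8a, and overlap for Ndufs6, Ndufa4l2 and Cox4i2.

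Complex V, ATP synthase, had 15 genes, all measured. Of these 11 were higher and 4 lower, with a median log2 fold change of 0.11 and 0 past the adjusted p. All 15 intervals of the brightest probes lay within 1.5-fold. Other probes were less precise, as for Atp5c1, whose second probe had a log2 interval of -1.30 to 0.33. Atp5b, the catalytic beta subunit, was at 16.85, 16.88 and 16.92 in control mice and at 17.22, 17.14 and 17.02 in TCE mice. Atp5a1, the alpha subunit that forms the same ring with it, was at 15.82, 15.94 and 15.87 against 15.74, 15.79 and 15.77. The groups of both genes were apart, in opposite directions, with log2 fold changes of 0.24 (adjusted p by limma = 0.313) and -0.11 (adjusted p by limma = 0.620). Atp5f1, the b subunit of the peripheral stalk, had the highest fold change of complex V, with 14.01, 14.07 and 13.91 against 14.28, 14.20 and 14.29 (log2 fold change 0.26, adjusted p by limma = 0.279). Its second probe gave -0.06, with TCE mouse 2 lowest, and the mean of both probes 0.10. The genes of the c ring, Atp5g1, Atp5g2 and Atp5g3, had log2 fold changes of -0.02, -0.06 and 0.16.

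The mean over the complex V genes was 15.57, 15.65 and 15.71 in control mice and 15.78, 15.71 and 15.73 in TCE mice, so that the groups overlapped narrowly. Among the 5 arrays of the shared slide, without control mouse 1, the median of complex V was 0.04, and those of complexes I, II, III and IV were 0.11, 0.15, 0.05 and 0.18. Without TCE mouse 2 they were 0.11, 0.22, 0.07 and 0.16, and 0.13 in complex V.

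The members that assemble the complexes or resemble subunits, 11 genes, were evenly divided, with 6 higher, 5 lower and a median of 0.01. The 7 complex I assembly factors Ndufaf1 to Ndufaf7 had log2 fold changes between -0.10 and 0.18. Ndufa4l2, a relative of Ndufa4 that is induced by low oxygen, had the lowest fold change of any member, with 7.46, 7.42 and 7.64 in control mice and 6.48, 7.21 and 7.44 in TCE mice. Its groups overlapped (log2 fold change -0.46, adjusted p by limma = 0.406). The highest of these genes was Atp5sl, at 0.22 on the log2 scale (adjusted p by limma = 0.454). Atp5c1-ps, whose symbol marks a pseudogene, had a log2 fold change of -0.03.

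Between the complexes, the medians ran from 0.10 in complexes I and III to 0.17 in complex IV. The complexes were not tested against each other. The spread of a complex mean between mice of a group, pooled over both groups, was 0.01 in complex I, 0.10 in complex II, 0.06 in complex III, 0.04 in complex IV and 0.05 in complex V. The difference of the complex mean between the groups ran from 0.04 in complex III to 0.20 in complex IV, where it was 0.07 without Cox6b2 and Cox7a1.

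**Figure D3:**
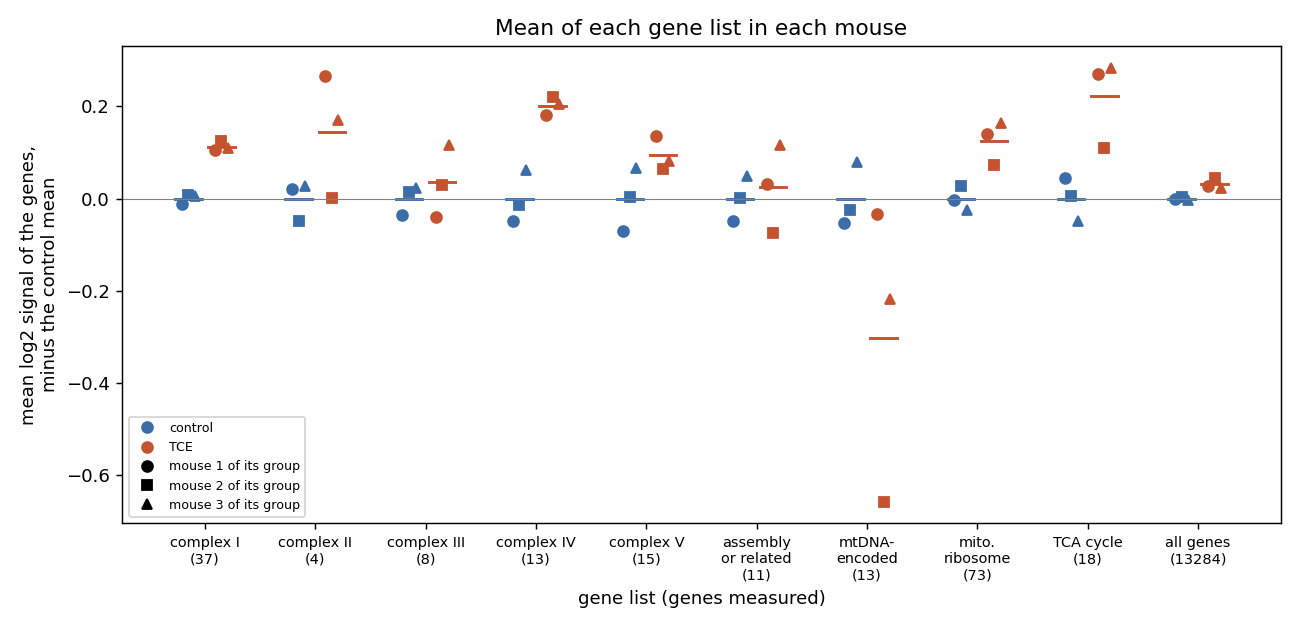
Mean log2 signal of each gene list in each mouse, minus the mean of the control mice; the line is the group mean and the number of genes measured is given below each name. TCE mice lie above control mice in complexes I and IV and in the lists of the mitochondrial ribosome and the TCA cycle. They also do so, by less, for all genes. The groups overlap in complexes II, III and V, and TCE mouse 2 lies far below the rest for the mtDNA-encoded subunits.

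The changes were set beside the promoter motifs without a test. Among measured members with a promoter, the median log2 fold change was 0.10 in the 12 with the NRF1 motif and 0.10 in the 62 without it, and 0.11 in the 17 with the ETS motif against 0.09 in the 57 without it. The 11 members with the YY1 motif had a median of 0.22, against 0.09 in the 63 without it. The 8 with the ERR motif had a median of 0.13, against 0.10 in the 66 without it. With the YY1 motif 9 of 11 were higher, against 48 of 63 without it. For ETS these counts were 15 of 17 against 42 of 57, for ERR 7 of 8 against 50 of 66 and for NRF1 8 of 12 against 49 of 62. The YY1 group holds Ndufb8, with the second highest fold change of complex I, and also Ndufs6, with the lowest. Among the regulators, Ppargc1a, which encodes PGC-1α, was at 8.73, 8.83 and 8.84 in control mice and at 8.92, 8.96 and 8.88 in TCE mice, a difference of 0.12 (adjusted p by limma = 0.599). Nrf1, Gabpa and Esrra had log2 fold changes of -0.05, -0.11 and -0.20, and Tfam, which packages and transcribes mtDNA, of 0.16. Ppara had a log2 fold change of 0.19 and Ppargc1b of -0.57, with adjusted p values of 0.535 and 0.703 (limma). The sign of Ppargc1b rested on TCE mouse 1, at 4.24 where the other TCE mice were at 6.18 and 6.61, and without that mouse its log2 fold change was 0.15. Of 23 regulators measured, 0 passed, 13 were higher and the median was 0.01.

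The subunits encoded by mtDNA gave the opposite sign. Of 13 genes, 12 were lower and 1 was higher in TCE mice, with a median log2 fold change of -0.19 and 0 past the adjusted p. For 6 of the 13 the array annotation places the probe on chromosome 1 of mm9, between positions 24619243 and 24621798, and not on the mitochondrial genome, so that whether the signal came from mtDNA is uncertain. The mean over the 13 genes was 15.80, 15.83 and 15.93 in control mice and 15.82, 15.20 and 15.64 in TCE mice. TCE mouse 1 lay within the control range, and TCE mouse 2 was lowest by a wide margin. Without TCE mouse 2, 9 of the 13 genes were lower and 4 higher, and the median was -0.08.

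ND3, a complex I subunit, was at 16.11, 16.13 and 16.53 in control mice and at 16.27, 12.77 and 16.20 in TCE mice. The low value of TCE mouse 2 alone gave the log2 fold change of -1.18 (adjusted p by limma = 0.558). The spots around ND3 on that array deviated by a median of -1.67 from the other arrays. COX1, the catalytic subunit of complex IV, was at 18.15, 17.60 and 17.92 in control mice and at 18.21, 16.28 and 16.09 in TCE mice, so that 2 TCE mice were low and 1 was the highest of all (log2 fold change -1.03, adjusted p by limma = 0.396). COX1 passed the adjusted p in the fit without TCE mouse 1. The spots around COX1 deviated by -0.38 on the array of TCE mouse 2 and by 0.04 on that of TCE mouse 3. CYTB, the mtDNA-encoded subunit of complex III, had a log2 fold change of -0.11, and ATP6 and ATP8, the complex V subunits, of -0.10 and -0.19. ATP8 was at 15.36, 15.41 and 15.36 in control mice and at 15.26, 15.25 and 15.06 in TCE mice, with no overlap (adjusted p by limma = 0.441). Without ND3 and COX1, which were left out after their values were seen, 10 of 11 genes were lower and the median was -0.11.

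**Figure D4:**
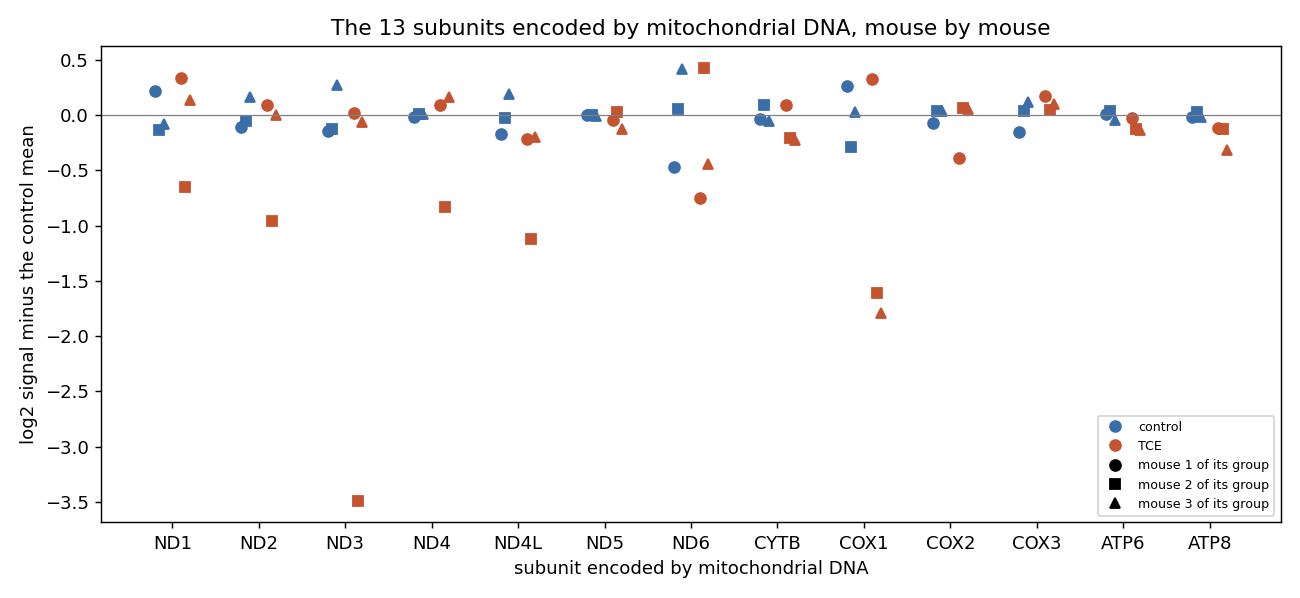
Log2 signal of the 13 mtDNA-encoded subunits in each mouse, minus the control mean of the gene (circle, square and triangle are mice 1, 2 and 3 of a group). TCE mouse 2 is far below the others for ND3 and low for ND1, ND2, ND4 and ND4L, and TCE mice 2 and 3 are low for COX1.

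Genes measured by several probes showed how far single spots can be read. Of 30 members with more than 1 measured probe, the log2 fold changes of the probes lay within 0.25 of each other in 20, between 0.25 and 0.5 in 4, and more than 0.5 apart in 6. The 6 genes were Ndufb2, Cox7c, Atp5j, Uqcrh, Atp5c1 and Uqcr10. The probe sequences of 3 of them are shown because the probes share most or part of their bases. The 2 probes of Ndufb2 share 30 bases, 2 of the 3 probes of Uqcr10 share 53 of 60, of which the first 30 are given, and those of Uqcrh align over 53 bases with 1 difference, G12A counted from the start of the stretch printed, in capitals.
Ndufb2, shared by both probes: aggtgagacatttcaagaaattacagactt
Uqcr10, shared by those probes: acttctgctgtgtttgagtacagctgtcag
Uqcrh probe on chromosome 4: ctcttctgtgtGactagcagtgacttcatc
Uqcrh probe on chromosome 2: ctcttctgtgtAactagcagtgacttcatc

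Ndufb2, an accessory subunit of complex I, was at 15.21, 14.81 and 14.42 in control mice and at 15.48, 13.54 and 14.54 in TCE mice by its brighter probe. The other probe gave 13.91, 13.48 and 13.90 against 13.88, 9.84 and 14.24, so that TCE mouse 2 was low by both probes but by very different amounts. The spots around the second probe deviated by a median of -0.82 on the array of TCE mouse 2, and those around the brighter probe by -0.07. Uqcrh, the hinge protein of complex III, gave 16.38, 16.38 and 16.37 against 16.42, 16.52 and 16.48 by the probe on chromosome 4. The probe on chromosome 2, which may also take up RNA of the gene on chromosome 4 since only 1 aligned base differs, gave 15.62, 15.61 and 15.58 against 15.49, 14.29 and 15.61. Apart from TCE mouse 2, both probes of Uqcrh stayed near their control level.

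For Cox7c and Atp5c1, TCE mouse 2 was also low by 1 probe only, at 12.42 against 14.01 to 14.38 in the other mice for Cox7c and at 11.48 against 12.42 to 12.87 for Atp5c1. The spots around these 2 probes deviated by 0.07 and -0.01 on that array. Uqcr10 was low in TCE mouse 1 by 1 of the probes that overlap, at 14.65, where the other gave 15.42, and the spots around the low one deviated by -0.51. The second probe of Atp5j was dim, at 5.30, 5.51 and 5.78 in control mice and 6.09, 6.20 and 5.99 in TCE mice, where the brightest probe gave a log2 fold change of -0.03.

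**Figure D5:**
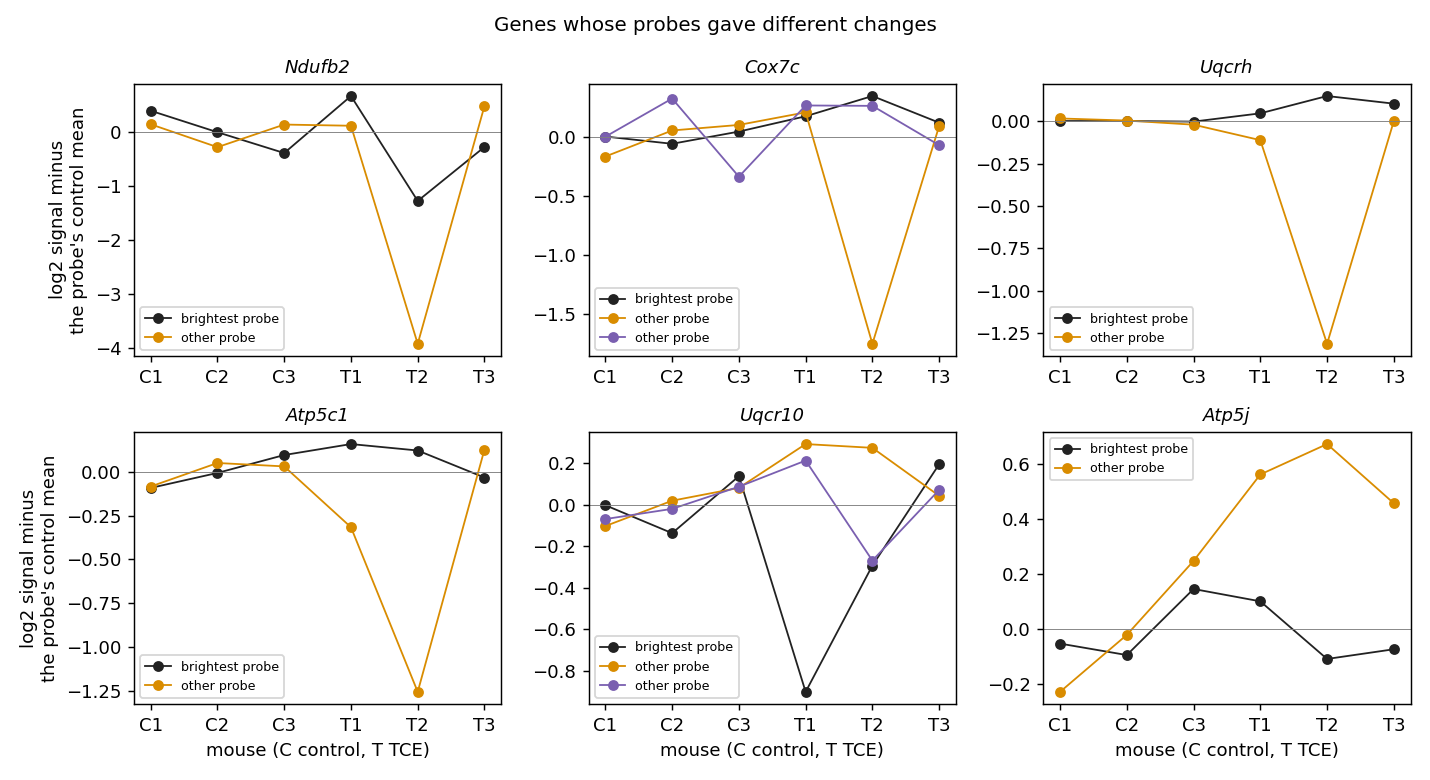
Log2 signal of each probe of 6 genes in each mouse, minus the control mean of the probe; C and T are control and TCE mice 1 to 3. TCE mouse 2 is low by both probes of Ndufb2 and by one probe of Cox7c, Uqcrh and Atp5c1, and TCE mouse 1 is low by one probe of Uqcr10.

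Genes next to the respiratory chain, in 9 lists chosen by their known function, gave 4 calls among 199 genes measured, all of them higher in TCE mice. This share of 2.01% was not above the 2.39% of all genes. Ucp2 and Ucp3, inner membrane carriers of the uncoupling protein family and known PPAR targets, had log2 fold changes of 1.57 and 1.62. Ucp3 was at 8.19, 7.97 and 8.07 in control mice and at 9.72, 9.70 and 9.65 in TCE mice (adjusted p by limma = 0.00258), and Ucp2 at 8.17, 8.21 and 8.25 against 9.92, 9.53 and 9.90 (adjusted p by limma = 0.00649). The groups of both genes were more than 1 log2 unit apart. Pdk4, a kinase that shuts off pyruvate dehydrogenase, rose 7.77-fold, from 7.47, 7.15 and 7.17 to 10.51, 10.52 and 9.63 (adjusted p by limma = 0.00657). Gpd2, the mitochondrial glycerol-3-phosphate dehydrogenase that gives electrons to coenzyme Q, was at 9.25, 9.52 and 9.71 in control mice and at 10.68, 10.58 and 10.59 in TCE mice, 1.12 higher on the log2 scale (adjusted p by limma = 0.0230). With 1 mouse left out Gpd2 passed in 1 of 6 fits, and the highest adjusted p was 0.103, while Ucp2, Ucp3 and Pdk4 passed in all 6.

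Most genes of the lists that feed or build the chain had a higher mean in TCE mice, with Gpd2 the only call among them. Of 18 genes of the TCA cycle and pyruvate dehydrogenase, 15 were higher and 3 lower, with a median log2 fold change of 0.25 and 0 past the adjusted p, and without TCE mouse 2 all 18 were higher. Mdh2, malate dehydrogenase, was at 16.12, 16.05 and 16.05 in control mice and at 16.45, 16.44 and 16.46 in TCE mice (log2 fold change 0.38, adjusted p by limma = 0.131). Cs, citrate synthase, had a log2 fold change of 0.56 (adjusted p by limma = 0.142). Etfa, Etfb and Etfdh, which pass electrons from fatty acid oxidation to coenzyme Q, had non-overlapping groups with log2 fold changes of 0.32, 0.36 and 0.41, and Cyc1, the cytochrome c1 of complex III that the symbol rule leaves out, had one of 0.40. Of the 9 dehydrogenases and related genes that feed coenzyme Q, to which the Etf genes and Gpd2 belong, 6 were higher and 3 lower. Prodh, proline dehydrogenase, and Dhodh, of pyrimidine synthesis, lay below all control mice in all 3 TCE mice, with log2 fold changes of -0.74 (adjusted p by limma = 0.303) and -0.27 (adjusted p by limma = 0.312). Of 73 mitochondrial ribosomal proteins, 61 were higher, with a median of 0.13 and 0 past the adjusted p. Of 35 other assembly factors measured, 25 were higher with a median of 0.10, and of 15 genes of cytochrome c and coenzyme Q synthesis, 12 were higher with a median of 0.17. The genes named in this paragraph were chosen for illustration after their values were seen.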

How the data were processed

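Liver RNA of 3 control and 3 TCE mice was measured on 1-colour arrays. The authors deposited the scanner output of Feature Extraction 10.7.1.1 (the version is from the submitters' processing notes), which gives for every spot an intensity after background subtraction. They also deposited a table with group means of the quantile-normalized log2 values and of the raw intensity, gene symbols and mm9 probe positions. Its 6 columns of detection flags were not used. Starting from the scanner intensity, control spots and outlier spots were left out, log2 was taken (no pseudocount), replicate spots were averaged per probe, and quantile normalization was applied across arrays. Group means so obtained were within 0.01 of those of the authors for 99.99% of probes. Probes well above background in all 3 mice of a group (22731) were compared by lmFit and eBayes of limma 3.58.1 under R 4.3.3, two-sided and with no covariate, with Benjamini-Hochberg adjustment over all of them. Intervals at 95% are from the same fit. The procedure was also run on simulated data with planted changes larger than that of any member. That run therefore does not bear on changes as small as those of most members.

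The members, gene lists and the rule for named genes were chosen with earlier results of these data known. Named were members with an adjusted p of 0.05 or less, the largest rise and fall of each complex, all Sdh genes and core subunits, tissue isoforms, members whose probes differed by over 0.5, up to 4 called genes of each other list, and 7 regulators. An item under this rule is not reported here. Further genes are named as examples, chosen after their values were seen: Ndufb8, Ndufab1, Ndufa3, Ndufa1, Ndufa4, Uqcrc2, Cox6a1, Cox6b1, Cox8a, the Atp5g genes, Atp5c1-ps and mtDNA-encoded genes. Ndufs3, Ndufs7, Ndufs8 and Ndufv2 were named in the same way. Alternatives were another normalization, normexp background correction (offset 50), other filters, the flagged outlier spots retained, replicate number or slide as a block, another variance model, the mean of the probes, the methods' t-test and each mouse left out. Leaving out spots whose neighbours (within 3 rows and columns) deviated by a median of over 0.4 was added after the data were seen. Mice carry the replicate number of the sample source label. No pairing of the mice by replicate number was seen. Deviations of same-numbered mice correlated at -0.09 to 0.09, and those of differently numbered mice at -0.11 to 0.11. With 3 mice per group these correlations cannot exclude a pairing. The number of arrays limits the precision. Promoters and motif positions are from RefSeq, GRCm38.p6, and exon or UTR positions of the probes were not analysed here.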

Additional observations from a re-analysis of the deposited data

How the results depend on the processing

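The members lean higher in every alternative run: between 64 and 72 of 89 to 93 members were higher in TCE mice, and their median log2 fold change was 0.08 to 0.14, while the median of all genes was 0.01 to 0.05. The single call, Cox6b2, kept its direction but not its side of the threshold, and its log2 fold change was 1.096 to 1.37 with any 1 mouse left out. The count of members that passed the adjusted p, and the count that was also past 2-fold, were both 0 with no filter on dim probes, with the methods' t-test after adjustment and with any 1 mouse left out. The calls among all genes fell in these fits too, from 317 to 72 with no filter, 37 with the adjusted t-test and 83 to 171 with 1 mouse left out. With normexp the 2-fold count alone was 0. At an unadjusted p of 0.05 or less, without the 2-fold threshold that the methods also set, their t-test gave 20 of 89 members and 19% of all genes. Of these 20 members only Cox6b2 was past 2-fold. In a paired fit with the replicate number as a block both member counts were 0, and 45 genes in all were called, although no pairing by number was seen. In the other lists the number of calls, 4, was 2 with no filter (Ucp2 and Ucp3), with the block (Ucp3 and Pdk4) and with the adjusted t-test (Ucp3 and Mdh2, the latter not called before), and 45 with the unadjusted t-test. The median of complex I was 0.12 with normexp, 0.0856 without spots beside deviating neighbours, and 0.10 to 0.14 with 1 mouse left out. That of complex IV was 0.12 with 75th percentile normalization, and that of complex V was 0.0367 to 0.16 with 1 mouse left out. The cause of these shifts was not tested. With 3 mice per group, the median half-width of a member's interval, 0.30 on the log2 scale, limits what could be seen, and a p above the threshold does not show that a gene was unaffected.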
